A study of Mus musculus with 6 samples.

Results

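The 9 luminal progenitor markers Kit, Aldh1a3, Cd14, Itga2, Itgb3, Lcn2, Ltf, Sox10 and Ehf were examined in sorted mammary tumor cells that carried or lacked RANK, the receptor activator of NF-kB. They were found by matching the accession of each gene probe on the arrays to its RefSeq symbol, and all 9 had at least 1 probe, among 36799 genes or unnamed transcripts on the array. Of the 9, 8 gave a signal bright enough to be tested, out of 22503 genes tested in all; the exception was Itga2. Tumors came from MMTV-PyMT mice, in which the mouse mammary tumor virus promoter drives the polyomavirus middle T oncogene in mammary epithelium. Donors were RANK+/+ or RANK-/- in the germ line. Tumor cells of either genotype were placed in the mammary gland of syngeneic C57BL/6 females, and live CD45- cells, meaning cells without the leukocyte surface protein CD45, were sorted from the tumors that grew. Hosts carried RANK and were immunocompetent, so stroma of the host could enter the CD45- fraction of either group. Donor age is not given in the sources used here, no treatment is named, and no label ties the RNAs of a genotype to separate donor tumors.

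The mammary ductal tree has an outer basal layer of contractile myoepithelial cells and an inner luminal layer. The luminal layer holds hormone-sensing cells, which carry estrogen and progesterone receptors, and hormone-receptor-negative luminal progenitors, which give rise to the milk-secreting alveolar cells of pregnancy. The markers examined here are known from that progenitor compartment: the stem cell factor receptor KIT, the retinal dehydrogenase ALDH1A3, the lipopolysaccharide co-receptor CD14, the integrin subunits ITGA2 and ITGB3 (CD49b and CD61), the secreted iron-handling proteins LCN2 and LTF, and the transcription factors SOX10 and EHF. RANK itself is known in mammary gland as the receptor through which progesterone, by way of RANK ligand, acts on neighboring progenitor cells.

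The markers did not shift in a single direction with genotype. No marker passed the limma test at an adjusted p of 0.05 (0 of 8, against 0% of all genes, 0 of 22503). At an unadjusted p under 0.05 the count was 1 of 8, against 2.88% of all genes. Sox10 alone had the higher signal in the RNA labeled RANK-/- of every pair, and no marker lay lower in all 3. The shares among all genes were 9.95% higher in all 3 pairs and 9.65% lower in all 3, so a count of 1 of 8 is close to that background. Within a pair, by contrast, the markers differed by up to 6.75-fold (Ltf in pair 3, a log2 ratio of 2.75). Technical replicate arrays, which had the same dyes, differed by at most 0.17 on the log2 scale.

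To see what each array measured, the layout has to be kept in mind. Each array received a RANK-/- and a RANK+/+ RNA in different dyes, and the 6 arrays formed 3 pairs of RNAs with technical replicate arrays A and B. RANK-/- RNA was labeled with Cy5 in pair 1 and with Cy3 in pairs 2 and 3, so pair 1 and its dye arrangement cannot be told apart. Per array and genotype, 51.9% to 58.8% of the 55681 gene probes were well above background. All ratios below are log2 ratios of RANK-/- over RANK+/+, averaged over arrays A and B, and levels are log2 signals after normalization, which are compared between RNAs for the same probe and never between probes. Because the arrays measured RNA from a sorted mixture, fewer cells of a type and less RNA per cell cannot be told apart.

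Tnfrsf11a, the gene that encodes RANK, went against the labels. Its ratio was 2.03 in pair 1, 1.15 in pair 2 and 1.76 in pair 3, a mean of 1.65 ± 0.45 (SD, n = 3), so the RNA labeled RANK-/- gave the brighter signal every time. Whether the probe lies inside the deleted stretch is not stated in the sources used here, so it may be no check of them. Directions for the markers are therefore given for the channel labeled RANK-/-, or, in short, the RNAs labeled RANK-/-.

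For the 3 markers whose ratios spread most between pairs (Ltf, Lcn2 and Kit), the 250 bases before the annotated start are shown, so that the regulatory sequence can be read beside the values. They come from RefSeq (GRCm38.p6), read 5′ to 3′ on the gene's strand. Capitals mark AGGAAG or its reverse complement CTTCCT, a 6-base form of the site that ETS-family factors such as EHF bind. The shorter core GGAA outside this form was not searched and is not marked. The Lcn2 promoter is chr2:32387740-32387989 on the minus strand, the Kit promoter chr5:75574737-75574986 and the Ltf promoter chr9:111019042-111019291, both on the plus strand.
Lcn2: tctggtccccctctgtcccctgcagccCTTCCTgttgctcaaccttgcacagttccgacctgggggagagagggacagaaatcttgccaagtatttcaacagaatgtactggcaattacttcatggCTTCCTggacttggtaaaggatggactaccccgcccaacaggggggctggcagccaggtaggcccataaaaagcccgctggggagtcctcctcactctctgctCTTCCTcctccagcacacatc
Kit: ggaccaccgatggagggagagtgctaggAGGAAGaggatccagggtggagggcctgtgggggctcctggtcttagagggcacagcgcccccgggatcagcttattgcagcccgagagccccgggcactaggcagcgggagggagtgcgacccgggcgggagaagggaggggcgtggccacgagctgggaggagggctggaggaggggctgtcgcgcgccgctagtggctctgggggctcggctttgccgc
Ltf: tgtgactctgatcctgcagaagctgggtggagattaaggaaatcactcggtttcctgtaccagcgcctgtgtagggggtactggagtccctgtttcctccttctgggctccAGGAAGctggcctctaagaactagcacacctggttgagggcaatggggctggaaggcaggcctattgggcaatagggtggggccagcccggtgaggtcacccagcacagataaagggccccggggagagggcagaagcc
The 6-base form occurred 3 times before Lcn2, at bases 223 to 218, 124 to 119 and 21 to 16 upstream of the start. It occurred once each before Kit (222 to 217) and Ltf (139 to 134). Of 32851 RefSeq promoter windows of this length, 29.5% hold it on either strand, so a match is common. The kappa-B consensus, found in 7.25% of windows, and the STAT site TTCNNNGAA, found in 7.02%, were searched on both strands and matched none of these 3 windows. A match describes letters and not binding, and a promoter sequence was matched for 4 of the 9 markers.

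The transcription factors came first. SOX10, a SoxE factor known from neural crest and from mammary progenitor cells, was measured by 1 probe, detected above background in both dyes throughout. The Sox10 level in the RNAs labeled RANK-/- was 14.32, 13.54 and 14.37 in pairs 1, 2 and 3, and in the RNAs labeled RANK+/+ it was 13.20, 13.30 and 13.47. The groups did not overlap, and the pair 2 RNA labeled RANK-/- stood only 0.07 above the highest RANK+/+ RNA. Among all genes, 7.44% had groups that did not overlap, and Sox10 was the only such marker (1 of 8). Sox10 ratios were 1.12, 0.24 and 0.90, with a mean of 0.76 ± 0.46 (SD, n = 3; 95% interval 0.15 to 1.36), or 1.69-fold. Here and below, the 95% intervals come from the limma fit, which draws on the variance of all genes. They do not follow from the SD of the 3 pairs alone. In limma the unadjusted p was 0.0249 and the adjusted p 0.9995. When arrays were centered on their median in place of loess, the pair 2 ratio of Sox10 was -0.17, that of pair 3 was 0.07, and the mean was 0.42 with an unadjusted limma p of 0.305.

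EHF, an ETS factor of glandular epithelium, showed no such order. Its level was 13.98, 12.85 and 13.54 in the RNAs labeled RANK-/- and 13.53, 13.57 and 13.05 in the RNAs labeled RANK+/+. The groups overlapped, with the pair 2 RNA labeled RANK-/- lowest of all 6. Ehf ratios were 0.44, -0.72 and 0.49 (mean 0.07 ± 0.69, SD, n = 3; 95% interval -0.74 to 0.89). A second, dimmer Ehf probe gave 0.15, -0.22 and 0.72, the same sign in each pair.

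KIT is the receptor tyrosine kinase for stem cell factor and a surface marker of luminal progenitors. Kit levels were 12.91, 12.33 and 12.92 in the RNAs labeled RANK-/- against 11.82, 13.18 and 12.65 in the RNAs labeled RANK+/+. The RANK+/+ RNAs spanned the wider range and enclosed all 3 RANK-/- values. The ratios were 1.09, -0.85 and 0.27, so that the difference was 2.13-fold in pair 1, placing Kit above 97.1% of the genes tested, and 1.80-fold the other way in pair 2, where it stood above only 3.55% of them. Its mean of 0.17 ± 0.97 (SD, n = 3; 95% interval -0.92 to 1.27) turned to -0.11 with median centering.

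The ligand and the signal transducers of KIT were read beside the receptor. All 12 listed genes were tested, none passed in either direction, and none kept a sign in all 3 pairs. Kitl, which encodes stem cell factor, had the highest mean of the list, at 0.39 (0.76, -0.26 and 0.66 in pairs 1, 2 and 3), and its signs matched those of Kit. The adaptor gene Shc1 followed at 0.34, and the lowest were Cbl, a ubiquitin ligase that ends receptor signaling, at -0.16 and the adaptor gene Gab2 at -0.11. No gene of the list differed 2-fold in any pair.

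**Figure D1:**
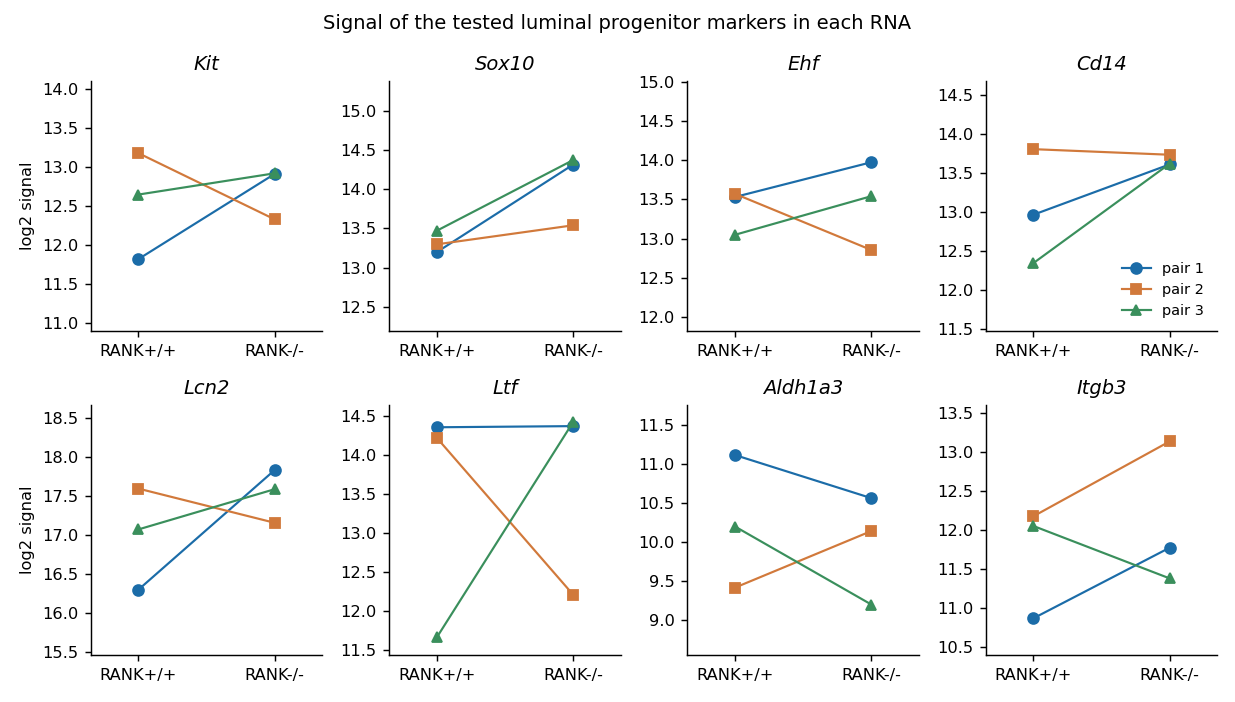
Log2 signal (vertical axes, 1 range per panel) of the 8 tested markers in the 3 RNAs labeled RANK+/+ and the 3 labeled RANK-/-, each point the mean of arrays A and B, with lines joining the RNAs of a pair. Sox10 is the panel in which all 3 RANK-/- points lie above all RANK+/+ points, while the Ltf lines run from 14.22 down to 12.21 in pair 2 and from 11.67 up to 14.42 in pair 3.

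CD14 binds lipopolysaccharide and passes it to the TLR4 receptor complex. It is known from monocytes and macrophages as well as from luminal progenitors. Cd14 levels in the RNAs labeled RANK-/- were nearly alike, at 13.61, 13.74 and 13.62, whereas the RNAs labeled RANK+/+ gave 12.97, 13.81 and 12.35. The pair 2 RNA labeled RANK+/+ was the highest of all 6, so the groups overlapped. The ratios were 0.64, -0.07 and 1.27, with a mean of 0.61 ± 0.67 (SD, n = 3; 95% interval -0.19 to 1.41), 1.53-fold.

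Of 8 genes of lipopolysaccharide recognition, 7 were tested and none passed. Lbp, which encodes the serum protein that hands lipopolysaccharide to CD14, was the only gene of the list above 0 in all pairs (0.08, 0.40 and 1.12). The highest means were those of Tlr2 (0.56) and Lbp (0.53), and the lowest those of Tlr4 (0.06) and the adaptor gene Myd88 (0.08). Tlr4 ratios were 0.19, -0.57 and 0.55, so in pair 2 the receptor lay further below 0 than Cd14 did.

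Lcn2 and Ltf encode secreted iron-handling proteins, lipocalin 2 binding bacterial siderophores and lactoferrin binding iron in milk. The Lcn2 level was 17.83, 17.15 and 17.58 in the RNAs labeled RANK-/- and 16.30, 17.59 and 17.07 in the RNAs labeled RANK+/+. A single RNA, the RANK+/+ RNA of pair 1, lay below the other 5. Lcn2 ratios were 1.53, -0.44 and 0.52 (mean 0.54 ± 0.98, SD, n = 3; 95% interval -0.57 to 1.64), and the pair 1 difference was 2.89-fold. With median centering the mean was -0.01.

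Ltf spread most of all the markers. Its level was 14.37, 12.21 and 14.42 in the RNAs labeled RANK-/- and 14.36, 14.22 and 11.67 in the RNAs labeled RANK+/+. Of the 6 RNAs, 4 lay between 14.22 and 14.42, and the low ones were the RANK-/- RNA of pair 2 and the RANK+/+ RNA of pair 3. The ratios were therefore 0.01, -2.01 and 2.75, or 4.02-fold lower in pair 2 and 6.75-fold higher in pair 3. In pair 2 Ltf stood above only 0.378% of the genes tested and in pair 3 above 99.8% of them. Its mean of 0.25 ± 2.39 (SD, n = 3) had a 95% interval of -2.31 to 2.81 and turned to -0.04 with median centering. The A and B arrays of Ltf differed by at most 0.04.

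All 14 genes of the list of iron and secreted defense proteins were tested, and none passed. Ceruloplasmin, the copper ferroxidase encoded by Cp, had the highest mean, 1.51 ± 0.87 (1.62, 0.59 and 2.32), followed by the acute-phase gene Saa2 at 1.32 (0.68, -0.33 and 3.60). Slc22a17, the proposed cell-surface receptor of lipocalin 2, was above 0 in all pairs with Cp (0.36, 0.18 and 0.43), and Wfdc2 was below 0 in all. The lowest means were those of Wfdc2, a whey acidic protein domain gene, at -0.76 and haptoglobin (Hp) at -0.33. At least 2-fold differences occurred in 8 of the 14 in pair 3, in 5 in pair 1 and in 0 in pair 2.

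ALDH1A3 oxidizes retinal to retinoic acid and accounts for much of the aldehyde dehydrogenase activity used to sort progenitors. Aldh1a3 had the opposite sign to Kit in every pair. Its level was 10.56, 10.14 and 9.20 in the RNAs labeled RANK-/- and 11.11, 9.42 and 10.20 in the RNAs labeled RANK+/+, and the groups overlapped. The ratios were -0.551, 0.724 and -0.998 (mean -0.28 ± 0.89, SD, n = 3; 95% interval -1.29 to 0.74).

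In the retinoic acid list 15 of 16 genes were tested and none passed, and 3 lay higher and 4 lower in all pairs. Cyp26a1 and Cyp26b1 encode the enzymes that break retinoic acid down. Cyp26a1 had the lowest mean of the list, -1.49 ± 0.93 (-2.56, -1.02 and -0.88), and Cyp26b1 gave -0.87, -0.45 and -0.61. Stra6, the retinol-uptake receptor, was next lowest at -1.14, and the highest means were those of the binding protein gene Crabp1 (0.71) and of Dhrs3 (0.57), which reduces retinal. Of the other retinal dehydrogenases, Aldh1a1 gave 0.13, 1.15 and 0.03, highest in pair 2 as Aldh1a3 was, and Aldh1a2 gave 0.84, -0.43 and 0.75, lowest in pair 2.

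Itgb3 encodes the integrin beta subunit CD61, which pairs with alpha v and, in platelets, with alpha IIb. Its level was 11.77, 13.13 and 11.38 in the RNAs labeled RANK-/- and 10.87, 12.18 and 12.05 in the RNAs labeled RANK+/+. Both pair 1 and pair 2 had the higher signal in the RNA labeled RANK-/-, and pair 3 had the lower. The ratios were 0.90, 0.96 and -0.67 (mean 0.40 ± 0.93, SD, n = 3; 95% interval -0.65 to 1.44). The dimmer second probe gave 0.69, 0.58 and -0.71.

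Itga2, which encodes the collagen-binding integrin subunit CD49b, was dim. Its single probe passed the background call for RANK-/- RNA on 2 of 6 arrays and for RANK+/+ RNA on 3 of 6, so it did not enter the test. Its measured ratios were -0.34, 0.01 and 0.05. Of 11 other integrin subunits all were tested, none passed, and 1, Itga5, lay below 0 in all pairs. The highest means were those of Itga1 (0.56), another collagen-binding subunit, and Itgb5 (0.29), and the lowest were those of Itgb4 (-0.51) and Itga6 (-0.41), which form the hemidesmosome integrin. Itgav, the partner of ITGB3 in epithelium, gave 0.32, -0.72 and -0.30, so it was below 0 in pair 2, where Itgb3 was highest.

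**Figure D2:**
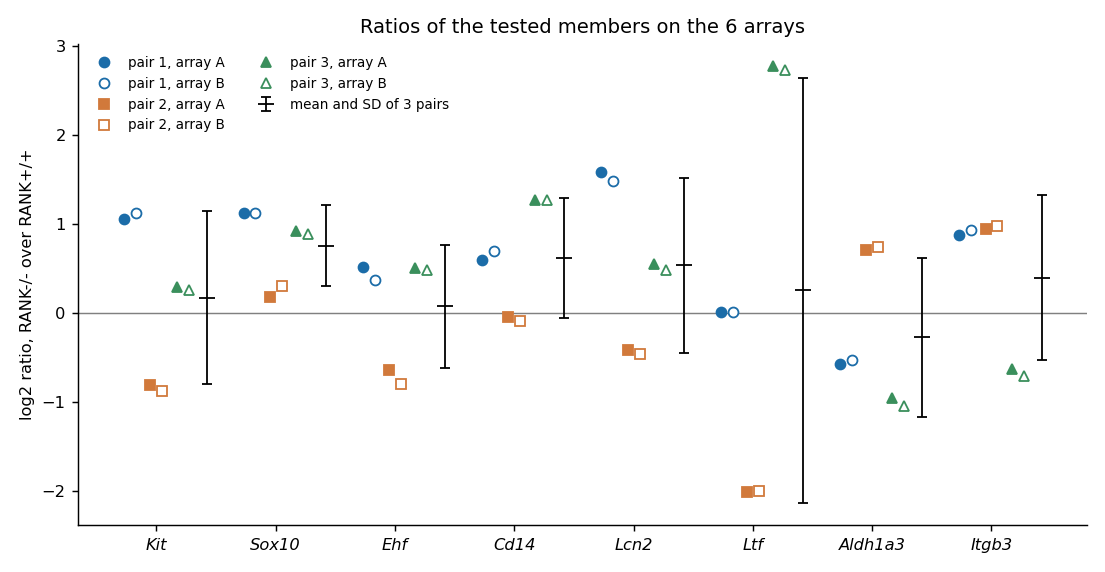
Log2 ratio of RANK-/- over RANK+/+ (vertical axis) of each tested marker on the 6 arrays, filled symbols for arrays A and open symbols for arrays B, with the mean and SD of the 3 pairs in black. Arrays A and B of a pair lie within 0.17 of each other for every marker, while the pairs of Ltf range from -2.01 to 2.75.

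Separate RNAs and technical replicates are different sources of spread. No marker had arrays A and B further apart than 0.17, and over all genes the median SD was 0.33 between pairs and 0.06 between technical replicates. Arrays A and B had the same dyes, so their gap holds no difference between dye arrangements. The number of markers at least 2-fold apart was 3 of 8 in pair 1 (Kit, Lcn2 and Sox10), 1 of 8 in pair 2 (Ltf) and 2 of 8 in pair 3 (Cd14 and Ltf). The shares among all genes were 6.5%, 4.82% and 7.92%.

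Some of the markers shared an order of the pairs. Kit, Ehf, Cd14, Lcn2 and Ltf (5 of 8) lay above 0 in pairs 1 and 3 and below 0 in pair 2, an order found in 18.8% of all genes. Ltf in pair 1 (0.01) and Cd14 in pair 2 (-0.07) were near 0. It was singled out after the values were seen and is given without a test. With the log2 ratios normalized by the authors the count was 4 of 8, and under median centering it was 3 of 8. Under median centering the median of the mean ratios of the markers was -0.027, with that of all genes at -0.14. The median of the markers was 0.77 in pair 1, -0.25 in pair 2 and 0.50 in pair 3, against 0.02, -0.01 and 0.00 over all genes, and the median of their mean ratios was 0.33 against 0.00. Without pair 2 that median was 0.82, and without pair 1 it was 0.09.

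Genes with the most similar 3 ratios were sought for the 5 markers that differed at least 2-fold in any pair, by the root-mean-square (RMS) difference over the 3 pairs among 14672 other named genes. Kit was nearest to the calpain gene Capn9 (RMS difference 0.03). Lcn2 was nearest to 4930412O13Rik (0.07) and Pla2g4a, a phospholipase A2 gene (0.09). Cd14 was nearest to the lysosomal protease gene Ctsd (0.03) and to Emp2 (0.05). Sox10 was nearest to Galnt10 (0.05). With 3 points, such closeness is common: 45 to 117 genes lay within 0.25 of each of these 4 markers. Ltf had no gene that close, and its nearest were Dmbt1 (0.35), a secreted mucosal defense gene, and Fer1l4 (0.37).

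Other genes of the luminal progenitor and secretory luminal cells were read for the same order of the pairs. All 11 were tested, none passed, and none kept a sign in all pairs, while 8 of 11 lay above 0 in pairs 1 and 3 and below 0 in pair 2, against 18.8% of all genes. The same count was 6 of 11 for general luminal genes, 4 of 7 for lipopolysaccharide recognition, 4 of 9 for endothelium, 5 of 12 for the KIT list and 5 of 13 for SoxE and ETS factors. It was 4 of 12 for hormone-sensing cells, 3 of 11 for basal genes, and 0 of 8 for milk genes and 0 of 7 for fibroblasts. The order was thus not seen in progenitor genes alone. Their median was 1.05, -0.69 and 1.00 in pairs 1, 2 and 3. Cyp24a1, the enzyme that inactivates vitamin D, had the highest mean, 1.08 (2.54, -2.20 and 2.91), then transferrin (Trf) at 0.95 (2.82, -0.69 and 0.73). The lowest were Tnfaip2 at -0.07 and the ETS factor gene Elf3 at 0.14. Gabrp, a GABA receptor subunit gene of luminal progenitors, ran the other way (-0.20, 2.38 and -0.54).

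Among 13 SoxE and epithelial ETS factor genes, all tested, none passed, and Elf2 alone lay above 0 in all pairs. Sox9, the SoxE relative of Sox10 in luminal progenitors, gave 1.05, -0.37 and 0.70, and Sox8 gave 1.68, 0.12 and -0.92. Elf5, the alveolar ETS factor, gave 0.73, -0.12 and 1.22. Etv5 had the highest mean of the list (0.89) and Elf5 the next (0.61), and the lowest were Elf4 (-0.10) and Etv6 (0.00). Elf3 and Elf5 belong to the preceding list as well.

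**Figure D3:**
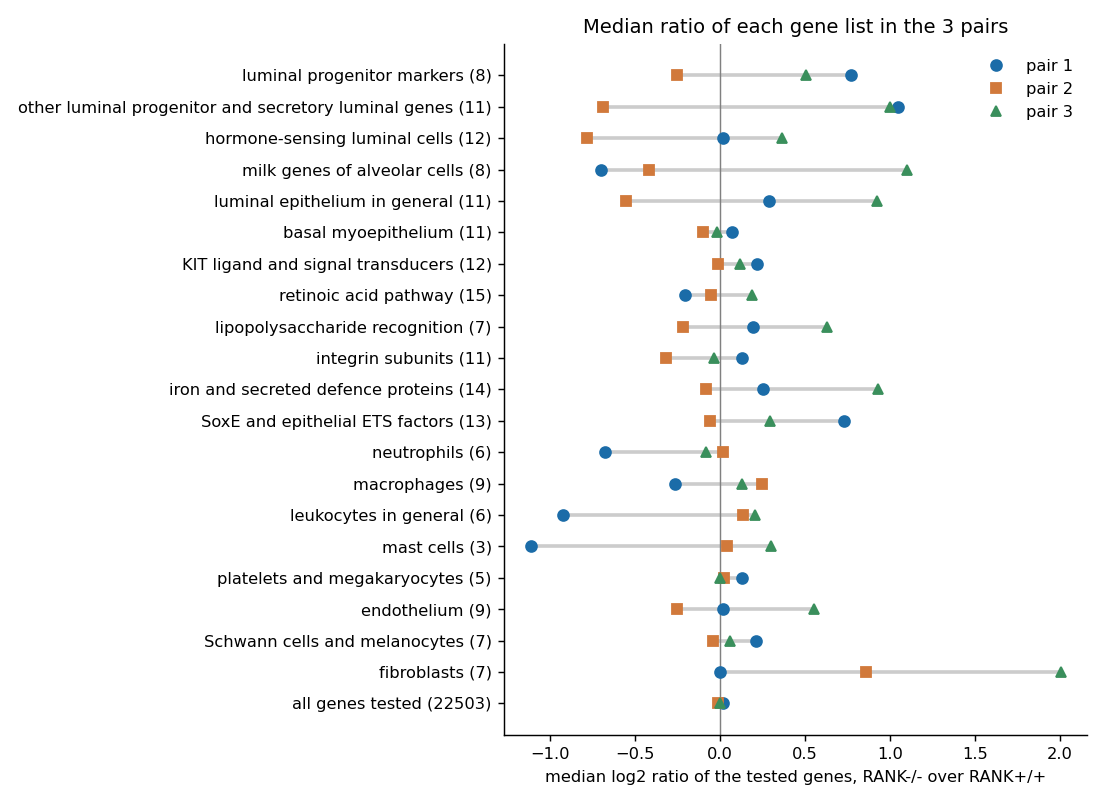
Median log2 ratio of RANK-/- over RANK+/+ (horizontal axis) of the tested genes of each list in pairs 1, 2 and 3, with the number of genes tested in parentheses and a gray bar from the lowest to the highest pair. The luminal progenitor markers ran from -0.25 in pair 2 to 0.77 in pair 1, and the fibroblast genes reached 2.01 in pair 3.

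The other epithelial compartments were compared with the markers by the same counts. Of the 12 genes of hormone-sensing luminal cells, all tested, 2 lay higher and 1 lower in all pairs, with medians of 0.02, -0.78 and 0.37. Tbx3 (mean 1.97; -1.11, 3.84 and 3.19, so of mixed sign) and Ly6a (0.74) had the highest means. The pioneer factor gene Foxa1 (-1.24; -0.97, -2.10 and -0.66) and the progesterone receptor gene Pgr (-0.76) had the lowest. Of 8 milk genes, all tested, 2 lay higher in all pairs, with medians of -0.70, -0.42 and 1.10. The whey acidic protein gene Wap (2.76; 3.75, 0.71 and 3.82) and Olah (0.83), which ends milk fatty acid synthesis, were highest. Glycam1 (-1.62; -2.62, -2.46 and 0.22) and the beta-casein gene Csn2 (-0.94; -3.88, 0.66 and 0.39) were lowest, both of mixed sign. The Csn2 level was 9.75 in the RANK+/+ RNA of pair 1 and 5.87 to 6.83 in the other RNAs.

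Of 11 general luminal genes, all tested, none kept a sign, with medians of 0.29, -0.55 and 0.93 in pairs 1, 2 and 3. Muc1 (0.63) and Gata3 (0.59) were highest, and the keratin gene Krt19 (-1.71) and the E-cadherin gene Cdh1 (-0.12) were lowest. Of 11 basal myoepithelial genes, all tested, 1 lay higher and 1 lower in all pairs, with medians of 0.07, -0.10 and -0.01 in the pairs and a median of mean ratios of -0.32. The oxytocin receptor gene Oxtr (0.89) and Sparc (0.73) were highest, and the basal keratin genes Krt17 (-1.23) and Krt5 (-1.07) were lowest. None of the genes of these 4 lists passed the test.

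Because some of the markers are also made outside the epithelium, the defining genes of those cells were read beside them. For neutrophils, which store lipocalin 2 and lactoferrin and carry CD14, 6 of 11 genes were tested, and the mean log2 signal of these 6 ranged from 8.89 to 9.31 in the RNAs labeled RANK-/- and from 8.98 to 10.69 in the RNAs labeled RANK+/+. S100a8 gave -3.99, 0.07 and -0.11 and S100a9 gave -4.12, -0.04 and -0.25, so the RANK+/+ RNA of pair 1 held the high value. In the same RNA Lcn2 was at its lowest and Ltf near its highest. That RNA also had the highest mean signal of the 6 RNAs in 4 lists. These were neutrophils (10.69), macrophages (8.80), leukocytes in general (8.53) and mast cells (8.21). The part of neutrophils in the Lcn2 and Ltf ratios was not tested. Mmp8 was well above background on no array, and Cxcr2, Mpo and Retnlg did not pass the filter. Csf3r (0.11) and Elane (0.01) had the highest means.

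For macrophages 9 of 11 genes were tested, and their mean log2 signal was 7.95 to 8.55 in the RNAs labeled RANK-/- and 7.86 to 8.80 in the RNAs labeled RANK+/+. Itgam (0.10) and Mrc1 (0.09) were highest and Cd68 (-0.14) and Adgre1 (-0.03) lowest, while Cd163 was well above background on no array. Beside Cd14 ratios of 0.64, -0.07 and 1.27, the complement gene C1qa gave -0.70, 0.59 and 0.13, Csf1r gave -0.65, 0.07 and 0.57 and Mrc1 gave 0.41, 0.64 and -0.77. The part of macrophages in the Cd14 ratios was not tested. Of 7 general leukocyte genes 6 were tested, with a mean signal of 7.18 to 7.67 against 6.64 to 8.53. Their medians were -0.92, 0.13 and 0.21, with Cd52 (0.50) and Laptm5 (-0.04) highest and Vav1 (-0.39) and Coro1a (-0.29) lowest. Ptprc, which encodes CD45, gave -0.93, 0.10 and 0.14 and passed the background call for RANK-/- RNA on 5 of 6 arrays and for RANK+/+ RNA on 4 of 6.

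Mast cells are a known source of Kit. Of 7 mast cell genes 3 were tested, with a mean signal of 7.14 to 7.25 in the RNAs labeled RANK-/- and 6.77 to 8.21 in the RNAs labeled RANK+/+, and the defining genes Cma1, Fcer1a and Ms4a2 were well above background on no array. Beside Kit ratios of 1.09, -0.85 and 0.27, Hdc gave -1.78, 0.83 and 0.30, Tpsb2 gave -1.11, -0.66 and 0.90 and Mcpt4 gave -0.29, 0.04 and -0.10. The part of mast cells in the Kit ratios was not tested. Platelets carry ITGB3 and ITGA2. Of 6 platelet genes 5 were tested, with a mean signal of 6.55 to 6.78 against 6.52 to 6.85. Gp9 (0.14) and Itga2b (0.13) were highest, Pf4 (-0.27) and Gp1bb (-0.01) were lowest, and Ppbp was well above background on no array. These signals were dim, and Gp9 passed the background call on at most 4 arrays for RANK-/- RNA and 3 for RANK+/+ RNA. A ratio near 0 in this list is therefore no measure of equal levels.

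Schwann cells and melanocytes express Sox10, and melanocytes also Kit. Of 9 of their genes 7 were tested, with a mean signal of 9.43 to 9.87 in the RNAs labeled RANK-/- and 9.09 to 9.36 in the RNAs labeled RANK+/+. S100b had the highest mean, 1.53 (3.78, 0.74 and 0.06), then Mitf (0.72), and the lowest were Mlana (-0.07) and Tyr (-0.05). The myelin gene Mbp (0.62, -0.30 and 0.13) was below 0 in pair 2, where Sox10 was at 0.24. The part of S100b-positive cells in the Sox10 ratios was not tested.

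Endothelium expresses ITGB3, and all 9 of its genes were tested, with a mean signal of 7.81 to 8.10 against 7.53 to 8.09. Cldn5 (0.55), above 0 in all pairs, and Tek (0.21) were highest, and Cdh5 (0.00) and Pecam1 (0.02) lowest. All 7 fibroblast genes were tested, and 3 were above 0 in all pairs, with medians of 0.00, 0.86 and 2.01. Their mean signal was 13.17 to 13.71 in the RNAs labeled RANK-/- and 11.62 to 13.20 in the RNAs labeled RANK+/+. The collagen gene Col1a2 (1.28) and Dcn (1.24) were highest and Pdgfra (0.54) and Fap (0.89) lowest. The RANK+/+ RNA of pair 3, lowest in fibroblast genes, was also lowest in Ltf and Cd14, and the part of stroma in those ratios was not tested. None of the genes of these non-epithelial lists passed the test.

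**Figure D4:**
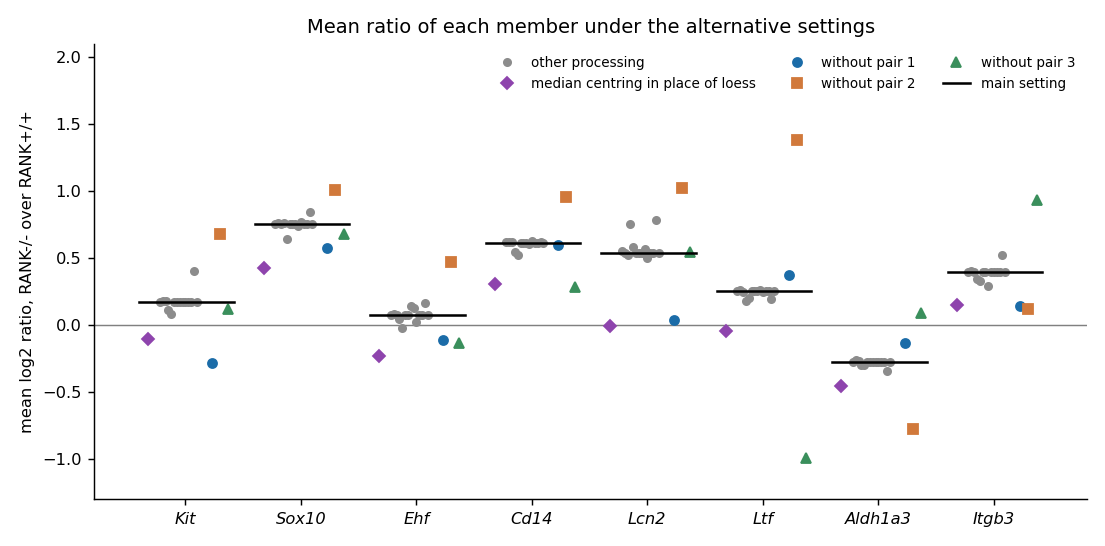
Mean log2 ratio of RANK-/- over RANK+/+ (vertical axis) of each tested marker under the main setting (black line), under the other ways of processing or fitting the arrays (gray, with median centering as purple diamonds) and with each pair left out. With median centering Sox10 was at 0.42, Cd14 at 0.30 and Itgb3 at 0.15, and Ltf ran from -0.996 without pair 3 to 1.38 without pair 2.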

How the data were processed

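RNA of sorted CD45- tumor cells was hybridized to 6 two-color Agilent mouse arrays, a RANK-/- and a RANK+/+ RNA on each. The authors extracted the scans with Agilent Feature Extraction (10.7.3.1 per the submitters' processing notes). The deposited scanner files give median spot intensity and local background intensity per dye, without normalization, and processed intensity, which Feature Extraction had background-subtracted and dye-normalized. The deposited series table holds log2 ratios normalized by the authors. Its direction is not stated, and it was set to RANK-/- over RANK+/+ from its correlation with the scanner ratios (0.855 and 0.858 with Cy5 over Cy3 in pair 1, -0.825 to -0.846 in pairs 2 and 3). Its column medians were -0.00763 to 0.00732, and any centering stays unknown. Groups, pairs and dyes came from the labels. Arrays A and B had the same dyes, although the methods describe dye swaps.

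Median signals were corrected with normexp (offset 50), then normalized by intensity loess within and Aquantile between arrays (limma 3.58.1, R 4.3.3). Control and outlier spots were left out, spots of a probe averaged, and arrays A and B averaged to 1 value per pair (n = 3). Probes were kept where the RNA of the same genotype was well above background on arrays A and B of 2 or more pairs (30231 of 55681 probes, 30228 with a ratio in all pairs). Names came from RefSeq (GRCm38.p6) by accession for 28026 probes. Coordinates are given for the promoter windows of that table only, since the array grid is of build mm9. The brightest kept probe stood for a gene. Genes were tested with limma (intercept only, two-sided, Benjamini-Hochberg over 22503 genes, threshold 0.05). The rank product test of the study was not run. The fit was run on simulated data only to check that it returned large changes put into them. How small a change 3 pairs could detect is not reported here. An exact sign-flip test over 3 pairs cannot give a p below 0.25. The p-values set the mean ratio against the spread between these 3 pairs, moderated by the variance of all genes. The number of pairs limits the precision.

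The markers and all lists were chosen with earlier results of these data known. Named besides the markers are Tnfrsf11a, the 2 highest and 2 lowest genes of each list by mean ratio, defining genes of cells that share a marker, and nearest genes in ratio. Some genes that this rule names are not reported here. Elf2, Sox8, Sox9, Gabrp, Slc22a17, Itga5, Itgav, Cyp26b1, Aldh1a1 and Aldh1a2 were named after their values were seen. Alternatives changed the background correction, the normalization, the signal source, the filter, the probe rule, the arrays, the fit and the pairs used.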

Additional observations from a re-analysis of the deposited data

How the results depend on the processing

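In 18 alternatives no marker passed the limma threshold (0 of 8 in each that kept 8). Of 144 mean ratios of the 8 markers, 134 kept their sign and 10 turned. Those 134 include values that were the same as in the main setting. The changed filters, the random block, the fit without a block and the robust fit moved no marker's mean. The count therefore overstates how stable the signs were. With median centering in place of loess, Kit was at -0.11, Lcn2 at -0.011, Ltf at -0.043 Ehf at -0.23, Sox10 at 0.42, Cd14 at 0.30 and Itgb3 at 0.15, and the median of all genes itself moved to -0.14. There 0 markers were higher in all pairs, and the median of the markers was -0.027. In the authors' series table Ehf was at -0.026. Leaving out each pair gave ranges of -0.29 to 0.68 for Kit, -0.77 to 0.086 for Aldh1a3, -0.996 to 1.38 for Ltf, -0.14 to 0.47 for Ehf, 0.039 to 1.02 for Lcn2, 0.29 to 0.96 for Cd14, 0.12 to 0.93 for Itgb3 and 0.57 to 1.01 for Sox10. The number of markers higher in all remaining pairs was then 1 to 6 and that lower in all 0 to 1, by construction over 2 pairs. The cause of the turns under other processing was not tested.

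Treating the channels as 3 and 3 separate samples, with no replicate block, cannot move the mean ratios by construction. No marker passed in that fit. The deviations of paired RNAs from their genotype means correlated at -0.03, -0.22 and -0.04 across genes. The labels give paired RNAs a shared array and number only. Whether they shared anything else cannot be told from these correlations. With all 6 arrays and the pair as a random block 13 genes passed, Tnfrsf11a among them (adjusted p = 0.0197) and no marker. Signal over background limits Itga2, whose ratio without a filter averaged -0.09. With 3 pairs and 1 of them in the other dye arrangement, dye and pair cannot be told apart.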

Other observations

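Dispersion within a genotype was uneven among the markers. The SD of the Cd14 level over the 3 RNAs labeled RANK-/- was 0.07, against 0.73 over the 3 RNAs labeled RANK+/+. For Sox10 it was 0.47 against 0.14, for Ehf 0.57 against 0.29 and for Itgb3 0.92 against 0.72, so wider in the RNAs labeled RANK-/-. For Kit it was 0.34 against 0.68, for Lcn2 0.34 against 0.65 and for Aldh1a3 0.70 against 0.85. Ltf varied widely in both, with 1.26 against 1.52. These are descriptions of 3 RNAs a genotype, with no test.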
